A study of Mus musculus with 4 samples.

Results

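Genes that lie wholly inside another gene on the opposite strand were examined in mouse Th2 cells. In the deposited annotation, exons were merged per gene, and pairs of genes on opposite strands were kept where they shared at least 1 exonic base and each had exactly 1 such partner. Of 2876 pairs of this kind, 1071 had the whole span of one gene within the span of the other. These 1071 contained pairs hold 2142 of the 50600 genes in the tables. The other pairs overlapped only in part, 872 tail to tail and 933 head to head. In a contained pair the gene of the shorter span is called the inner gene and its host the outer gene. In 6 pairs the spans are equal and the naming is arbitrary.

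The study holds 1 group of 4 RNA-seq libraries, biological replicates 1 to 4, from primary T-helper 2 cells of the inbred mouse strain C57BL/6NJ. Th2 cells are the CD4+ T cells that make the cytokines of allergic and anti-parasite immunity, and a linked protocol describes their differentiation in culture from CD4+ T cells. The file headers name 48 hours of a time course. All 4 libraries carry 1 donor identifier but separate biosamples, age and sex are not given, and there is no second condition, so every comparison is between the genes of a pair or between kinds of pairs. P-values therefore measure only the spread between these libraries.

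A gene inside another gene on the opposite strand is transcribed in the direction opposite to its host, and where exons overlap the transcripts are complementary. Such natural antisense transcripts are widespread in mammalian genomes, many of them long non-coding RNAs, and some are known to affect the host through transcription or RNA pairing. Read counts can separate the genes of a pair only by strand. The deposited counts were made with a strand setting under which a read pair counts only for the gene on the strand of its first read. Which strand the library kit puts in the first read is not given in the sources used here, and the part of that setting in the results was not tested. If the kit put the other strand there, each printed count would be of RNA from the strand opposite the named gene. This would hold at shared and unshared exon bases alike. The direction given below between inner and outer gene would turn wherever it rests on shared bases, and could turn elsewhere. Counts under the other setting were not used here, so every direction below holds for the deposited counts as assigned.

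The libraries held 2271993, 2112190, 2204423 and 1785970 counts (replicates 1 to 4). A gene at 0 counts could hold up to 3 counts, 1.32 to 1.68 CPM (counts scaled to the library's total), for counting error only. All 10 T cell marker genes had over 3 counts in every library, summing to 716 to 823 CPM, and 7 of 10 Th2 markers did, summing to 165 to 222 CPM. Of the Th2 markers 1, the cytokine gene Il5, was at 0 in all libraries, and 3 are outer genes here. None of 5 CD8 T cell or 5 NK cell markers and 1 of 6 B cell markers passed that level. Of 7 myeloid markers 1 did, carrying most of a sum of 599 to 663 CPM, and it too shares exon bases with a gene on the other strand. The part of these markers in the results was not tested.

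Most contained pairs joined a short non-coding gene with a long coding one. The inner gene was typed as antisense in 457 pairs and as protein-coding in 129, and the outer gene was protein-coding in 838. The median inner span was 2181 bp with 2 exons, and the median outer span was 33887 bp with 10 exons. The inner gene had a single exon in 378 pairs and lay entirely in outer exons in 274. A median of 212 bases was shared, 34.0% of the inner gene's exon bases and 5.68% of the outer gene's. The shared bases fell mainly in coding sequence of the outer gene in 467 pairs, in its 3′ UTR in 145, in its 5′ UTR in 105 and in exons without coding sequence in 350, and 4 pairs had no such exon in the annotation used for gene parts.

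The stretches below show what the exon overlap of the pairs described later looks like. Each is read 5′ to 3′ on the strand of the inner gene, from the GENCODE vM21 transcript sequence on mm10, and capitals mark the bases shared with the coding sequence of the outer gene. Lower case is inner exon beyond that outer exon, at most 40 bases a side.
Gm13256 (inside Gata3, chr2:9877312-9877444, plus strand): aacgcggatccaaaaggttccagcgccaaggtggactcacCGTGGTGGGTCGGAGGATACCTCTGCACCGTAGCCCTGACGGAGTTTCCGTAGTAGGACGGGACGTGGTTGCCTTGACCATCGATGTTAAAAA
Gm20531 (inside Ptpn6, chr6:124732260-124732511, plus strand): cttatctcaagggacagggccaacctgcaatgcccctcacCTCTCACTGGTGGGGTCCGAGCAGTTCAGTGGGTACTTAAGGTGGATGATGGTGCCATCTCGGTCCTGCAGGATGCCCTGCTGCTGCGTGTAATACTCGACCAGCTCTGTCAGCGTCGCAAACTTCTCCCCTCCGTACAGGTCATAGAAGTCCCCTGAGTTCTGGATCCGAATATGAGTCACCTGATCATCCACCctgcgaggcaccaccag
Gm44985 (inside Plk1, chr7:122167557-122167792, minus strand): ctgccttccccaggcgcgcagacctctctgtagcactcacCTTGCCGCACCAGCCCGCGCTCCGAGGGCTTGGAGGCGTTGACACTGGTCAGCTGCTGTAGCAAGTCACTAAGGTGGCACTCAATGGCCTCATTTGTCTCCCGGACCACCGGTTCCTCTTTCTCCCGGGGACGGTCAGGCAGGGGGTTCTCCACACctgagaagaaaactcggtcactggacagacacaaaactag
Gm43361 (inside Atp2a2, chr5:122500691-122500848, plus strand): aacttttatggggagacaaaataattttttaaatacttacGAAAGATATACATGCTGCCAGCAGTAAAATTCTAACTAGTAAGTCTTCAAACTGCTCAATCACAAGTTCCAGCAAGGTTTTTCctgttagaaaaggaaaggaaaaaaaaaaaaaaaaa
Gm43361 held 2474, 2412, 2590 and 1506 counts in replicates 1 to 4 and Atp2a2, which encodes a calcium pump of the endoplasmic reticulum, 94, 77, 80 and 65; values of the other pairs follow with their gene groups. The reverse complement of each capital stretch was found in at least 1 transcript of the outer gene. In all 4, the lower-case bases directly before the capitals read ac, the reverse complement of the GT that opens the outer intron, and in all but Gm13256, where the printed exon ends, the bases after them read ct, the reverse complement of the AG that closes one. The same was counted in 982 inner genes with a transcript sequence, wherever an outer exon edge next to an intron fell inside an inner exon. AC preceded 617 of 635 such donor edges (97.2%) and CT followed 701 of 711 acceptor edges (98.6%), against 5.70% and 7.71% of all neighbouring base pairs in these transcripts. The inner transcripts thus hold, in antisense, intron ends that the spliced host transcript lacks. Outer splice sites are part of how the host was annotated, so these shares describe the annotation and not the libraries.

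As assigned in the deposited tables, the inner gene held far more of the counts than its host; this direction depends on the strand setting described above. Inner genes of contained pairs took 13.8% ± 0.918 of all counts and outer genes 1.90% ± 0.114 (mean ± SD, n = 4), so that 87.9% ± 0.464 of the pairs' counts fell on the inner gene. Counts were present in 778 pairs, and both genes were at 0 in all libraries in 293. The inner gene was at 0 in 404 pairs and the outer gene in 380. To compare genes of different length, counts were divided by exon length, and the ratio of inner to outer density was taken per library on a log2 scale with 0.5 counts added to each gene. Over the 523 pairs with a summed mean of at least 10 counts, the median log2 ratio was 6.89, 7.11, 7.50 and 6.83 in replicates 1 to 4, a mean of 7.08 ± 0.302. All 4 libraries lay on the same side of 0, and the exact two-sided sign-flip test gave p = 0.13, the smallest that 4 libraries allow.

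Each pair was also tested in edgeR, with the inner and outer counts of a library as neighbours, exon length as an offset and the library as a block, over all 1643 opposite-strand pairs that passed the same count minimum. At a Benjamini-Hochberg adjusted p under 0.05, 438 of the 523 contained pairs were denser in the inner gene, 66 were denser in the outer gene and 19 were not called. Over all 1643 pairs the background was 67.9% called denser in the gene of the shorter span and 26.8% in the gene of the longer span, against 83.7% and 12.6% of the contained pairs. On raw counts without the length offset, the outer gene was called in 103 pairs and the inner gene in 398. With 3 libraries at a time, 433 to 437 pairs were called for the inner gene and 64 to 68 for the outer.

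**Figure D1:**
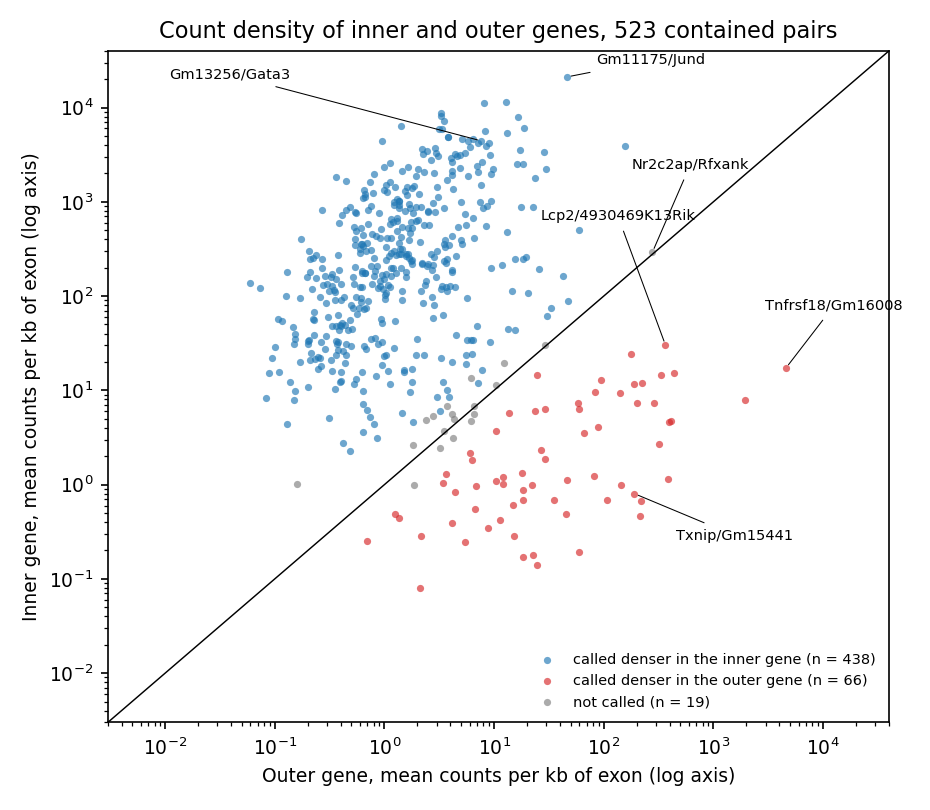
Mean counts per kb of exon in the outer gene (x axis, log scale) and the inner gene (y axis, log scale) for the 523 contained pairs tested, with 0.5 counts added; the line marks equal density and colours mark the call of the pair test. Of the points, 438 are called above the line and 66 below it, with few between, and 6 pairs named in the text are marked.

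The split followed the gene types of the pair. In the 608 pairs with a long non-coding gene inside a coding gene, 353 were tested, the inner gene was called in 333, the outer in 12, and the median log2 ratio was 7.54 ± 0.239. In the 87 pairs with both genes coding, 51 were tested, with 28 calls for the inner gene, 18 for the outer and a median of 2.88 ± 0.499. Where a coding gene lay inside a long non-coding gene (41 pairs, 17 tested), the direction turned: 15 were called for the outer gene, 2 for the inner, with a median of -6.02 ± 0.290. Pseudogenes inside coding genes gave 18 inner and 7 outer calls of 28, and small RNA genes inside coding genes gave 36 and 2 of 40, with a median of 8.93. In each of these classes with a coding and a long non-coding gene the denser gene was mostly the non-coding one, whichever of them was inside. This too rests on the strand to which the deposited counts were assigned, and under the opposite assignment the coding gene could be the denser one in both classes.

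**Figure D2:**
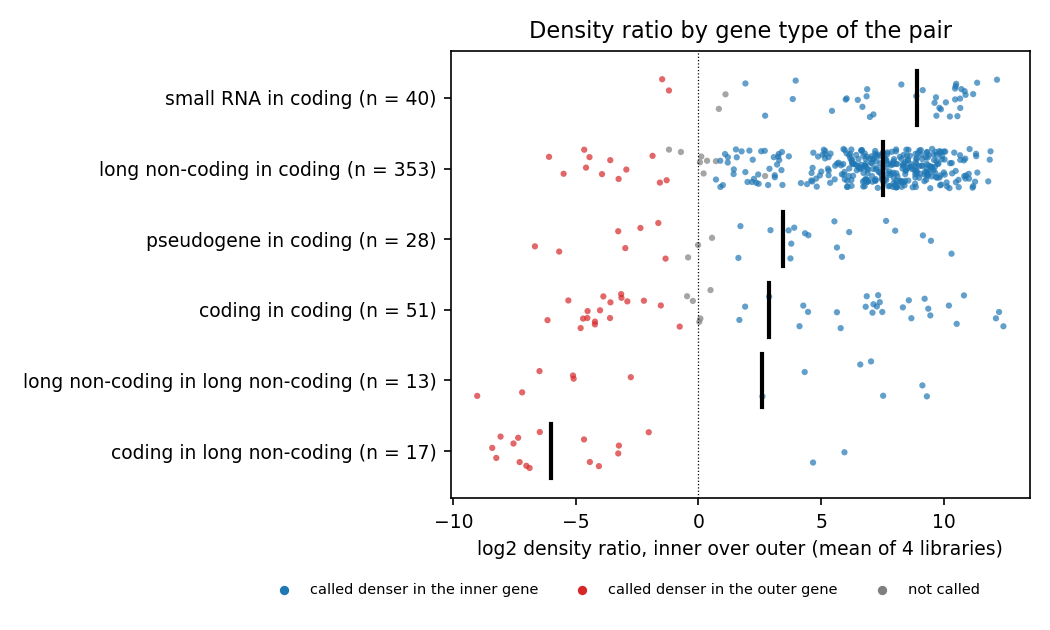
Log2 ratio of inner to outer count density (x axis, mean of 4 libraries) for each tested pair, by gene type of the pair (rows, classes with at least 10 tested pairs); black bars are class medians and colours mark the call. Long non-coding genes inside coding genes centre on 7.54 and coding genes inside long non-coding genes on -6.02.

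The same split was present in pairs that overlap only in part. The gene of the shorter span was denser in 84.9% ± 0.632 of contained pairs and 63.6% ± 0.155 of partly overlapping pairs, a difference of 21.3 ± 0.519 percentage points (n = 4, exact sign-flip p = 0.13). Within long non-coding genes of the shorter span paired with coding genes, the difference was 3.61 ± 0.945 points, and within pairs of coding genes 4.01 ± 0.490 points, each with the same exact p of 0.13. For the first class the tail-to-tail pairs gave 117 calls for the shorter-span gene and 7 for the longer of 124, a share of 94.2% ± 0.403 denser against 95.04% ± 0.713 when contained. Head-to-head pairs of that class gave 200 and 15 calls of 232. Coding genes of the shorter span paired with long non-coding genes were denser in 11.8% of contained, 6.58% ± 3.40 of tail-to-tail and 12% of head-to-head pairs, the first and the last being equal in all 4 libraries. Contained pairs thus stood out over all types, and by under 5 points within either of the largest classes.

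**Figure D3:**
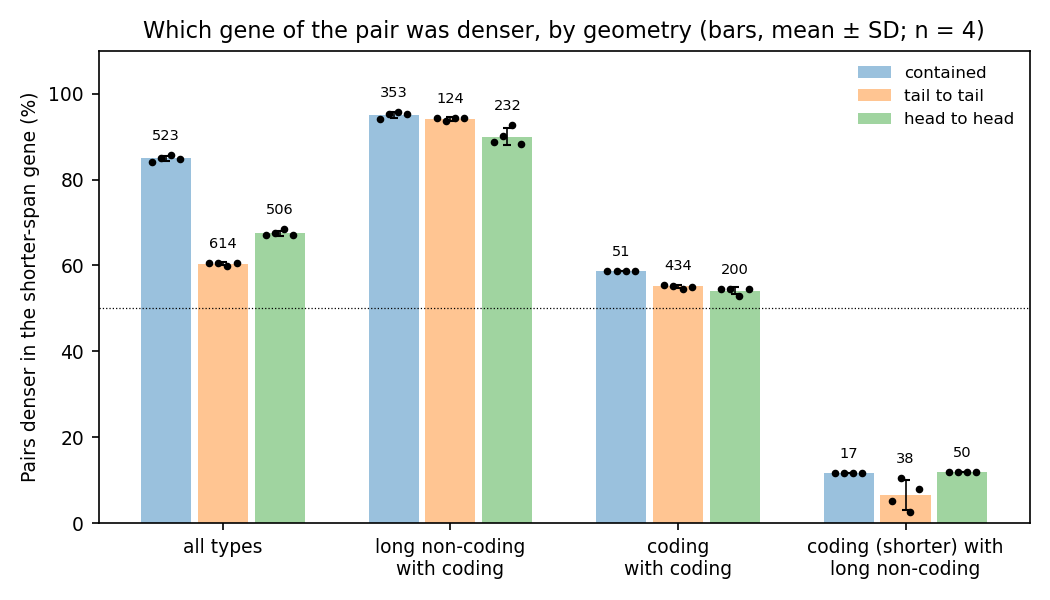
Percentage of pairs in which the gene of the shorter span had the higher count density (y axis), by gene types and by geometry; bars are means of 4 libraries with SD, dots the libraries, and numbers above the bars the pairs tested. Over all types contained pairs reach 84.9%, while within long non-coding and coding pairs the 3 geometries lie at 95.04%, 94.2% and 89.98%.

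Several of the genes that define helper T cells were outer genes with an antisense gene inside. All 7 tested pairs of the Th2 and helper lineage list were called denser in the inner gene, with a median log2 ratio of 8.69, against 438 of 523 and 7.08 over all contained pairs. Gata3 encodes the transcription factor that directs Th2 differentiation. Its inner gene Gm13256 held 2300, 2218, 2625 and 2048 counts in replicates 1 to 4, and Gata3 held 44, 35, 21 and 20. No library of Gata3 came near the lowest of Gm13256. Of the 520 exon bases of Gm13256, 155 are shared with Gata3, among them the coding stretch printed above. Where along Gm13256 the counts fell is not known. Per kb of exon Gm13256 was 586-fold denser (exact 95% interval 489 to 708 for counting error), a log2 ratio of 9.24 ± 0.577 with an adjusted p of 8.17e-24.

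Il4ra, the signalling chain of the interleukin 4 receptor, held 20, 17, 16 and 12 counts, and Gm44876 inside it 631, 711, 764 and 511. The groups were far apart, with a 361-fold higher density of Gm44876 (282 to 469). Runx1, a transcription factor of T cell development and helper fate, held 12, 9, 3 and 10 counts against 655, 679, 681 and 528 for Gm26626. Only 106 of the 713 exon bases of Gm26626 are shared with Runx1. The counts are totals per gene, so where along Gm26626 they fell is not known.

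Il5 encodes the Th2 cytokine that supports eosinophils. It was at 0 in all 4 libraries, while Gm12214, whose 417 exon bases all lie in exons of Il5, held 72, 95, 48 and 46 counts. Against the limit of 3 counts per library for Il5, Gm12214 was at least 80.2-fold denser. Il21, a cytokine that helps B cells, was the closest pair of the list: Gm12534 held 12, 10, 9 and 13 counts and Il21 44, 32, 30 and 23. Raw counts were higher in Il21 in every library, and density was higher in the short Gm12534, 3.82-fold (2.65 to 5.42), with an adjusted p of 5.79e-06. Without the length offset this call turned, to a log2 ratio of -1.53.

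Bcl6, the repressor that directs follicular helper cells, held 2, 2, 0 and 0 counts against 31, 38, 25 and 20 in Gm37419. Rora, a nuclear receptor, held 2, 1, 4 and 2 against 19, 12, 6 and 8 in Gm15511, and this was the pair with the smallest gap in counts, 4 and 6 in replicate 3. Maf, an activator of Il4, was below the count minimum of the test, with 0, 0, 1 and 0 counts against 6, 5, 6 and 3 in Gm15655. In these 3 pairs the host genes were within or near the counting limit of 3 counts.

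Among genes of T cell receptor signalling, 3 pairs were called for the inner gene and 2 for the outer. Over all contained pairs the calls were 438 and 66 of 523. Ptpn6, the phosphatase SHP-1 that dampens receptor signals, held 65, 55, 38 and 47 counts, and its inner gene Gm20531 3654, 3553, 3929 and 2775. Cd3e, a subunit of the T cell receptor complex, held 18, 20, 6 and 9 against 2351, 2067, 2361 and 1692 in Gm48719. The groups did not overlap in either of these pairs, and the density ratios inner to outer were 138-fold (121 to 160) and 1806-fold (1380 to 2414).

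The outer calls were pairs in which the T cell gene was the inner one. Tnfrsf18 encodes GITR, a costimulatory receptor of activated T cells, and lies inside the antisense gene Gm16008. It held 33, 28, 22 and 20 counts against 6486, 5955, 6850 and 4975 in Gm16008, which was 271-fold denser (224 to 332, adjusted p = 8.72e-24). Lcp2, the adaptor SLP-76, lies inside 4930469K13Rik, typed as coding. It held 180, 120, 122 and 115 counts against 294, 276, 276 and 172, a density 12.1-fold higher in the outer gene (10.9 to 13.5). In Lcp2 the highest library, replicate 1, just passed the lowest of 4930469K13Rik, so raw counts overlapped between the genes, though the outer gene led within each library.

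**Figure D4:**
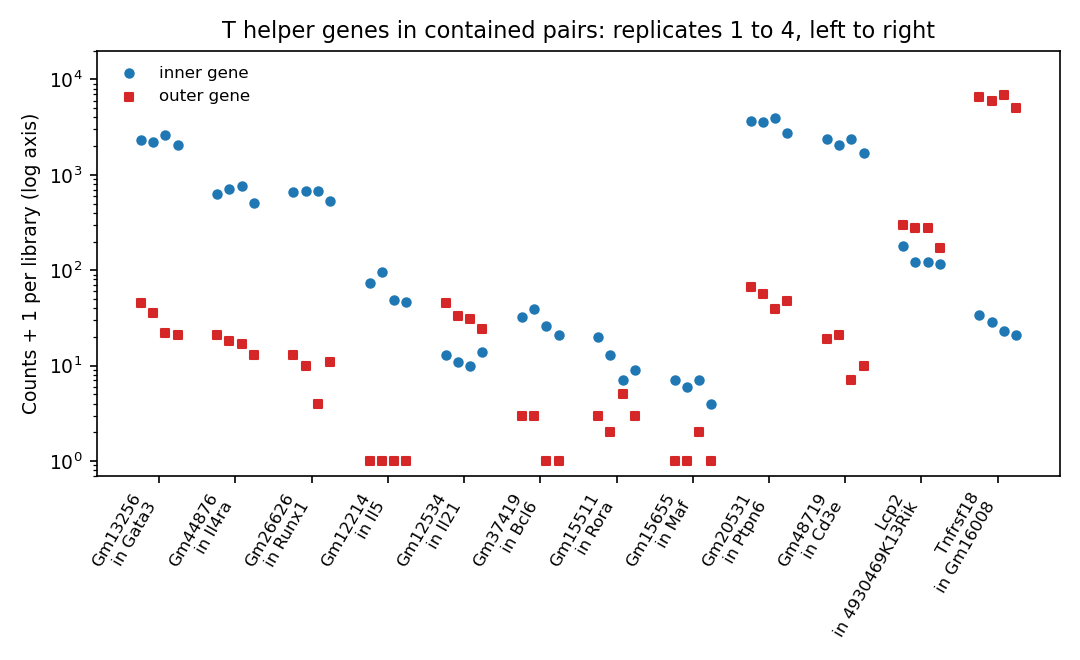
Counts plus 1 (y axis, log scale) of the inner and outer genes of 12 contained pairs with a helper-lineage or T cell receptor signalling gene, with replicates 1 to 4 from left to right in each pair. The inner gene leads in counts in 9 of the pairs, and the outer gene leads for Il21, Lcp2 and Tnfrsf18.

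All 4 transcription factors of the activation list were outer genes with a denser inner gene, against 438 of 523 over all contained pairs tested. Jund, an AP-1 subunit, gave the pair with the most counts of all: Gm11175, whose 877 exon bases all lie in Jund exons, held 22264, 18290, 20488 and 13040 counts, and Jund 109, 73, 69 and 56. Gm11175 was 459-fold denser (410 to 515, adjusted p = 2.56e-24). Foxo1, which keeps T cells quiescent, held 2, 7, 5 and 3 counts against 353, 366, 404 and 208 in Gm20402. Bach2, a repressor that restrains effector differentiation, held 27, 31, 22 and 18 against 1593, 1825, 1879 and 1433 in Bach2os. Irf1, an interferon-response factor, held 9, 10, 0 and 4 against 137, 154, 177 and 108 in Gm17334. None of these outer genes reached the lowest library of its inner gene.

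The remaining pairs with the most counts were of the same make. Gm17638 inside Eif3d, a subunit of the initiation factor that recruits ribosomes, held 15602, 15405, 16401 and 11864 counts against 63, 52, 38 and 65. Gm26762 inside the glycolytic enzyme gene Gpi1 held 12852, 12151, 13419 and 9004 against 75, 68, 46 and 60. Gm26669 inside Zfp36l1, an mRNA decay factor, held 9498, 8730, 10104 and 7121 against 14, 14, 5 and 10, a 1364-fold higher density (1012 to 1884). In each of these the host was far below the lowest library of its inner gene. 9130221H12Rik inside the kinase gene Gsk3a differed less: it held 6329, 5959, 6981 and 5070 counts against 486, 491, 501 and 314, a 24.98-fold higher density (23.8 to 26.2).

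The widest ratios came from very short inner genes. The 6 pairs of highest ratio with a summed mean of at least 100 counts had log2 ratios of 11.88 to 12.44, and their inner genes had 39 to 235 exon bases. Gm26741 inside Gopc, a Golgi protein gene, led with 143, 189, 166 and 140 counts on 87 exon bases against 4, 5, 1 and 4 on 10958. Gm17617, with 39 exon bases inside Zfp346, held 182, 186, 182 and 135 counts against 5, 2, 5 and 2. Because a read pair longer than such a gene still counts in full, density per kb can be overstated for inner genes this short.

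The 6 lowest ratios ran from -9.02 to -8.07, with the outer gene non-coding in all 6. Txnip, an inhibitor of thioredoxin and glucose uptake, held 2, 0, 2 and 4 counts inside Gm15441, which held 349, 344, 345 and 238. Zfp322a held 3, 2, 2 and 5 inside 4930586N03Rik, with 195, 232, 200 and 146. Gm45706 held 491, 487, 516 and 335 counts around Gm45705 at 0, 0, 1 and 1, although 2134 of its 2136 exon bases are shared. In that pair nearly the same bases are annotated on both strands, and almost all counts lay on one.

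Other coding genes inside non-coding hosts behaved alike. Bmyc, a relative of Myc, held 3, 4, 6 and 3 counts inside A230005M16Rik, with 764, 696, 772 and 578. Tes, a focal adhesion gene, held 31, 9, 17 and 14 inside Gm4876, with 1046, 1020, 1084 and 746. Acp5, an acid phosphatase, held 1, 1, 1 and 3 inside 6530413G14Rik, with 314, 260, 299 and 222. Lipe, the hormone-sensitive lipase, was less far from its host at 45, 42, 41 and 20 against 254, 282, 289 and 201, a 9.42-fold higher density outside (7.92 to 11.3). The host led in every library of these 4 pairs.

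Where both genes are coding, either could lead. Pdcd2, a ribosome assembly factor, held 86, 74, 46 and 42 counts inside the span annotated for the TATA-binding protein gene Tbp, which held 2693, 2488, 2524 and 1694. Prc1, which bundles microtubules in cell division, held 82, 63, 50 and 46 inside Rccd1, at 2471, 2303, 2479 and 1816. Bak1, a mitochondrial cell-death effector, held 44, 38, 28 and 29 inside Ggnbp1, a gene known for its part in sperm, at 2676, 2432, 2501 and 1701. The 357 bases that Bak1 and Ggnbp1 share lie mainly outside the Ggnbp1 exons of GENCODE vM21, the annotation used for gene parts. Asf1a, a histone chaperone, held 45, 47, 32 and 44 inside the helicase gene Mcm9, at 1788, 1857, 1925 and 1308. The outer gene was called in all 4, by 7.30-fold to 39.2-fold in density. On the other side Bricd5 held 943, 929, 900 and 683 counts inside Mlst8, a subunit of the mTOR complexes, at 32, 38, 15 and 19. Gm20481 held 14, 14, 8 and 7 inside the heat-shock chaperone gene Hspa1a, which was at 0 throughout.

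Few pairs were near equal. Nr2c2ap inside Rfxank, a subunit of the factor that drives MHC class II genes, held 484, 511, 538 and 364 counts against 1269, 1173, 1191 and 774. Per kb the densities differed 1.05-fold (0.994 to 1.11) with an adjusted p of 0.538, while on counts alone Rfxank was called, at a log2 ratio of -1.21. Zbtb12 inside the complement gene C2 held 76, 62, 67 and 40 against 97, 116, 130 and 107, a log2 ratio of 0.04 ± 0.433 with an adjusted p of 0.804. Without the length offset this pair too was called for its outer gene, at -0.89. A p above the threshold does not show that the densities are equal. Nr2c2ap and Rfxank held the most counts of the 19 pairs not called.

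Small RNA genes inside coding genes stood high in density ratio but not in counts. Their median inner count was 30.6, against 219 for long non-coding genes inside coding genes. Density can be overstated for inner genes this short. The libraries are labelled total RNA, while the title of the linked library protocol names PolyA+ RNA. The annotated products of small RNA genes are far shorter than the fragments of a usual RNA-seq library. What the counts on these genes come from was not tested. Gm44335 and Gm44364 are typed as miRNA genes and lie entirely in the coding sequence of the histone genes H2afx and H2afj, so that every base of each is in capitals.
Gm44335 (inside H2afx, chr9:44334965-44335105, minus strand): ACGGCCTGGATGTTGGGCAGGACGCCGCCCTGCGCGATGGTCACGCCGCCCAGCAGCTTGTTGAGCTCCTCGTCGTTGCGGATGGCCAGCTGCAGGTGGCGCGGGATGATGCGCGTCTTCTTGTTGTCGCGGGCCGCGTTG
Gm44364 (inside H2afj, chr6:136808543-136808683, minus strand): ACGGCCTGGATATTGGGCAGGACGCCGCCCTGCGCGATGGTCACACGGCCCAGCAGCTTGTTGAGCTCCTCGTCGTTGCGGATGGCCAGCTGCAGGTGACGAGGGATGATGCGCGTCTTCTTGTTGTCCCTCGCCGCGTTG
The sequences are identical at 133 of 141 positions (94.3%), so reads of one could in part be placed on the other. Gm44335 held 1760, 1621, 1668 and 1184 counts against 16, 10, 6 and 11 for H2afx, the variant H2A phosphorylated at DNA breaks. Gm44364 held 1834, 1673, 1759 and 1140 against 37, 19, 22 and 15 for H2afj. No library of either histone gene came near those of its inner gene. Gm44454 inside Hist1h2ak, a replication-dependent H2A gene, held 20, 17, 16 and 42 counts while Hist1h2ak was at 0 in all libraries. Such H2A genes are near copies of each other, and the assignment of reads among them is uncertain.

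The tables hold 120 contained-pair miRNA genes, and 58 were matched in the RefSeq miRNA table (GRCm38.p6). The mature sequences of those discussed are given 5′ to 3′ with the seed, bases 2 to 8, in capitals.
mmu-miR-142a-5p: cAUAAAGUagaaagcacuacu
mmu-miR-142a-3p: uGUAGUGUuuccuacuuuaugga
mmu-miR-142b: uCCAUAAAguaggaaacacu
mmu-miR-451a: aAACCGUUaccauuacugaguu
mmu-miR-451b: uGGGAGCAgcaagagaaccgu
mmu-miR-762: gGGGCUGGggccgggacagagc
mmu-miR-6340: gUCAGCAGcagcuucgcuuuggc
mmu-miR-130c: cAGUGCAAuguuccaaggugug
No seed was shared among these 8. miR-142 is an abundant miRNA of blood cells. Its gene Mir142, 64 bases long, was at 0 in all libraries, while Mir142b on the other strand, 115 bases long, held 256, 232, 197 and 214 counts, and the reverse complement of the Mir142 hairpin was found within the Mir142b hairpin. Mir142b was at least 41.7-fold denser against the limit of 3 counts per library. Mir451a, of a miRNA known from red blood cells, and Mir451b are reverse complements over 72 bases and were both at 0. Mir762, inside the coding sequence of the chromatin gene Bcl7c, held 567, 473, 573 and 313 counts against 13, 5, 8 and 13. Mir6340 inside Rab22a, an endosome GTPase gene, held 243, 262, 252 and 186 against 9, 4, 5 and 3. Mir130c inside Kdelc2 held 70, 65, 74 and 40 against 0, 1, 2 and 3. These counts were not read as levels of the mature miRNAs.

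Housekeeping pathways showed the same direction. On the respiratory chain and mitochondrial translation list all 9 tested pairs were called for the inner gene, with a median log2 ratio of 8.04, and Gm16755 inside the mitochondrial ribosome gene Mrpl12 held 5571, 5328, 5280 and 3653 counts against 20, 26, 16 and 16. On the chromatin list 11 of 12 were called for the inner gene and 1 for the outer. Its examples were Gm26625 in Ezh2, the methyltransferase of Polycomb complex PRC2, with 2643, 2720, 2915 and 2104 counts against 67, 71, 56 and 52, and Gm26563 in Suz12, another PRC2 subunit, with 2237, 2671, 2756 and 1950 against 37, 37, 23 and 28. In both PRC2 genes under 10% of the inner exon bases were shared with the host, and where along the inner gene the counts fell is not known. RNA processing genes gave 7 inner calls of 8. Gm29361 in the splicing gene Rbm25 was among the closer pairs, at 1016, 998, 1068 and 949 counts against 1206, 1036, 1052 and 796. Its 8.56-fold higher density (8.20 to 8.95) rested on length, since the log2 ratio of counts was -0.01 with an adjusted p of 0.952.

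Cell cycle and DNA replication genes gave 7 inner and 2 outer calls of 9, and vesicle traffic and cytoskeleton genes 9 and 1 of 11. Plk1, the mitotic kinase, held 14, 17, 11 and 23 counts against 1575, 1641, 1761 and 1162 for Gm44985, whose overlap with Plk1 coding sequence is printed above. Protein folding and degradation genes gave 4 inner calls of 5, ribosomal protein and translation genes 3 inner and 2 outer of 5, and metabolic enzymes 3 and 1 of 4. The cytokine and receptor list had 2 pairs, neither with enough counts to test. These shares lie around the 83.7% of all contained pairs, and no list was tested against the rest.

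The density ratio was wider where more of the inner gene was overlapped. Pairs with under 10% of inner exon bases shared had a median log2 ratio of 6.05 (n = 90), those with 10% to 50% 6.99 (n = 224), those with 50% to 90% 7.78 (n = 53) and those with 90% or more 8.33 (n = 156). Inner counts did not rise in step: from the lowest class to the highest their medians were 100, 120, 219 and 108. Those of outer counts were 10.3, 9.88, 5.25 and 7. The part of exon length in this order was not tested. Across the 523 pairs, which share libraries and differ in depth, Spearman's rho was 0.267. The share of calls for the inner gene moved less, from 68 of 90 in the lowest class to 133 of 156 in the highest. By the part of the host that was overlapped, pairs over its coding sequence gave 237 inner calls of 255 and a median of 7.72, and those over its 3′ UTR 88 of 98 and 8.52. Pairs over its 5′ UTR gave 42 of 57 and 3.89, and those over exons without coding sequence 71 of 112 and 3.25. Among long non-coding genes inside coding genes the order of the 3′ UTR (8.88), coding sequence (7.63) and 5′ UTR (4.52) was the same, with all 61 tested pairs over a 3′ UTR called for the inner gene. The ratio also went with the summed counts of the pair (rho 0.395), while inner and outer mean counts hardly went together over all 523 pairs (rho 0.0414) but did so to some degree in the 353 with a long non-coding gene inside a coding gene (rho 0.331).

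**Figure D5:**
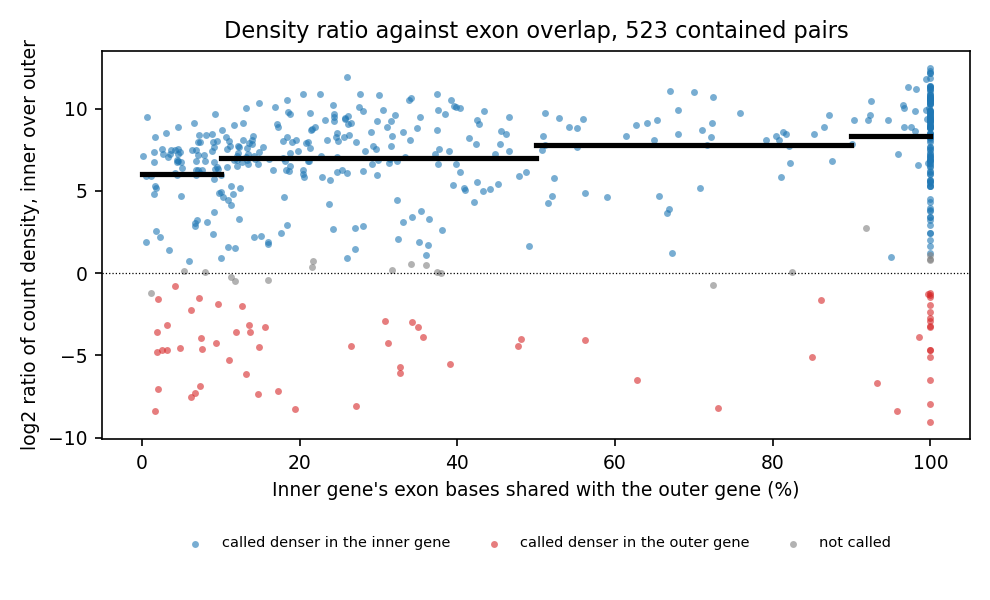
Log2 ratio of inner to outer count density (y axis) against the percentage of the inner gene's exon bases shared with the outer gene (x axis) for the 523 tested pairs; black bars are medians of the 4 overlap classes and colours mark the call. The medians go from 6.05 under 10% overlap to 8.33 at 90% or more, with called pairs of both directions at every overlap.

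In 12 pairs a coding host was called denser than the long non-coding gene inside it. Jam3, a junction adhesion gene, held 50, 73, 35 and 34 counts against 0, 2, 0 and 0 in Gm48796. Rps2, a ribosomal protein gene, held 229, 145, 111 and 167 against 0, 0, 0 and 1 in Snhg9, with which it shares 14 bases. Bcat1, a branched-chain amino acid enzyme, held 144, 102, 103 and 94 against 2, 3, 2 and 1 in Gm26666. Dnmt3a, a DNA methyltransferase, held 126, 93, 86 and 92 against 1, 7, 1 and 1 in Dnmt3aos. In all 12 the inner gene had at most 7 counts in any library, so these are pairs whose inner gene was near the counting limit.

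Little in these genes differed between the 4 libraries. A goodness-of-fit test of an edgeR model with 1 mean per gene called 23 of 5064 genes, 0.454%, as varying beyond the common trend of dispersion, and 2 of the 609 tested genes of contained pairs. Gm5148, a host around the pseudogene Rps23-ps1, held 2072, 1694, 1777 and 801 counts (912, 802, 806 and 448 CPM, adjusted p = 0.000968). Olfr77, an olfactory receptor gene around the pseudogene Gm7808, held 18, 27, 29 and 66 counts (7.92, 12.8, 13.2 and 37.0 CPM, adjusted p = 0.00135). In both replicate 4 stood apart, and without it neither was called, with an adjusted p of 0.9997. The share of members called, 0.328%, is near the background. At an unadjusted p under 0.05 there were 17 of the 609 genes of contained pairs, against 260 of all 5064 genes tested.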

How the data were processed

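RNA-seq of Th2 cells was measured in 4 libraries of 1 group. The deposited tables hold whole, unnormalized counts of read pairs per gene, made, per the file headers, by the authors with featureCounts 1.4.6-p4 (strand setting 1, both ends mapped, exons summed by gene) on GENCODE vM13 and mm10. They also give exon length (bp), used as deposited. No version of the aligner is given there. The labels call the assay total RNA-seq, but the title of the linked library protocol names PolyA+ RNA.

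Pairs came from the deposited coordinates. Gene names, types, coding parts and transcript sequences came from GENCODE vM21 (same genome), in which 10 member genes had no match. The pair test used edgeR 4.0.16 (R 4.3.3, limma 3.58.1) quasi-likelihood fits with TMM factors, a library block and a length offset; a pair entered at a summed mean of 10 counts. Variation between replicates was an edgeR goodness of fit with trended dispersion. DESeq2 1.42.0 and limma served as alternatives. Density ratios use a pseudocount of 0.5 counts. Fold intervals (95%, exact binomial) and the limit of 3 counts cover counting error alone: without molecular identifiers, read pairs can be copies of 1 molecule. On simulated data the pair test, run on 1643 pairs, recovered 83% of 2-fold and 99% of 4-fold differences, and the goodness of fit, on 5064 genes, 20% and 99% of genes changed in 1 library. The differences were planted only in pairs with a summed mean, or genes with a mean, of at least 20 counts. Recovery below that level was not simulated.

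The members and gene lists were chosen with earlier results of these data known. Named pairs are the 12 with the most counts; the 6 highest and 6 lowest ratios among called pairs with a summed mean of at least 100; all pairs of the helper lineage, T cell receptor, cytokine and activation lists and the 2 with the most counts of each other list; members varying between replicates; the 4 nearest to equal; and up to 6 coding genes in non-coding hosts. Named after their values were seen are Pdcd2, Prc1, Bak1, Bricd5, Gm20481, Gm44335, Gm44364, Gm44454, Gm43361, the 12 coding hosts denser than their inner gene, and the miRNA pairs other than Mir762. Of the pairs this rule names, 2 are not reported here.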

Additional observations from a re-analysis of the deposited data

Results flagged for a closer look

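In 122 groups of 4 library values (7 summary values and the CPM of each named gene with a mean of at least 10 counts), the gap of the highest or lowest library to its neighbour was set against the whole range. Chance flags about 1 in 20 such groups, and 9 passed Dixon's critical value for groups of 4 at the 95% level. Replicate 3 stood apart for 3 genes: Gpi1 at 20.9 CPM against 32.2 to 33.6 (gap over range 0.890), Zfp106 at 25.4 against 41.4 to 44.0 (0.861) and 9130221H12Rik at 3167 against 2786 to 2839 (0.861). Replicate 4 stood apart for the other 6. It was low for Gm17122 at 1356 CPM against 1604 to 1612 (0.968), Tbp at 948.5 against 1145 to 1185 (0.830), Rfxank at 433 against 540.3 to 559 (0.854), 4930469K13Rik at 96.3 against 125 to 131 (0.841) and Lipe at 11.2 against 18.6 to 19.9 (0.852). It was high for Gm44454, inside a histone gene, at 23.5 against 7.26 to 8.80 (0.905). None of the 7 summary values was among the 9.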

How the results depend on the processing

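The alternatives were listed with earlier results of these data known. Inner calls numbered 434 with DESeq2, 438 with DESeq2 size factors, 440 with limma on log2 ratios and 525 with no filter on low counts; a summed mean of at least 100 left 280 inner and 33 outer calls of 315 pairs tested. Outer calls were 64 to 76 in the first 4 and rose to 103 without length scaling. Leaving out 1 replicate gave 433 to 437 inner and 64 to 68 outer calls. The median log2 ratio was 4.52 without length scaling, 5.34 with every pair holding counts, 8.33 at 90% overlap or more, and 6.94 to 7.16 with 1 replicate left out. Limits to 1 class and a floor of 3 counts for genes at 0 (6.998) were chosen after seeing the data; of these, only coding genes in long non-coding genes reversed it, to -6.02. The inner share of counts (13.8%) was 14.9% without the ribosomal RNA genes CT010467.1 and Gm42418, 27.4% as TPM and 4.79% at 90% overlap or more; the outer share (1.90%) was 2.05%, 1.04% and 0.421%; leaving out 1 replicate gave 13.5% to 14.2% and 1.87% to 1.95%. The contained-minus-partial difference was 13.8 to 25.5 points under other filters and scalings, 3.61 and 4.01 within a class, and 21.1 to 21.6 with 1 replicate left out. Members varying between replicates numbered 1 with DESeq2 size factors, 1 with no filter, 3 with a common dispersion, 2 as DESeq2 dispersion outliers, 2 without CT010467.1 and Gm42418, and 0 to 2 with 1 replicate left out. Single pairs were checked for 71 of the named pairs. Not among them were Gm43361/Atp2a2, Gm44335/H2afx, Gm44364/H2afj, Mir6340/Rab22a, Mir130c/Kdelc2 and the coding hosts denser than a long non-coding inner gene. Of 700 checks on the 71 pairs 694 held. Without length scaling 4 reversed (Gm29361/Rbm25 -0.0076, Nr2c2ap/Rfxank -1.21, Zbtb12/C2 -0.89, Gm12534/Il21 -1.53) and Htr2b/Psmd1 was called (-2.23). Gm7808/Olfr77 was not called without replicate 4 (adjusted p 0.0504, edgeR). The cause was not tested beyond what length scaling and smaller tables do by construction. No paired analysis was possible because there is 1 group; the library is the block of the pair test itself. Hosts under 3 counts give only lower bounds.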

Other observations

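In 6 pairs the genes have equal spans, so that neither is inside the other. Gm26593 held 55, 46, 54 and 31 counts and Gm5124 held 1, 0, 0 and 1. Gm26656 held 38, 36, 30 and 29 and Gm44067 held 0, 2, 1 and 0. The other 4, among them the miRNA pairs Mir451a and Mir451b, Mir30e and Mir30f, and Mir873a and Mir873b, held at most 1 count in any library. Where equal-span genes had counts, one strand thus held nearly all of them.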
